A study of Homo sapiens with 4 samples.

Results

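Chromosome 19 carries most of the human Krüppel-associated box (KRAB) zinc finger genes, and their transcript levels were followed through hematopoietic differentiation of BC1 cells. The genes were taken by symbol and position: a member had a symbol made of ZNF and a number, a locus on chromosome 19 and at least 1 FPKM (mapped fragments scaled to 1000 bases of transcript and to 1000000 fragments a library) in at least 1 library. Of 242 such genes on the chromosome, 205 were members, among 17137 genes of any kind with at least 1 FPKM. Because the members were selected on their FPKM values, that they are detected is not a result. The lowest values that met the rule were those of ZNF709, which peaked at 1.005 FPKM in APLNR+ cells, ZNF844 at 1.08 FPKM in APLNR+ cells and ZNF490 at 1.12 FPKM in CD43+ cells. Just outside it were ZNF441 with at most 0.971 FPKM, ZNF233 with 0.965 FPKM and ZNF547 with 0.954 FPKM.

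BC1 cells are a line of human induced pluripotent stem cells, reprogrammed cells that can form any tissue. Undifferentiated BC1 cells were compared with 3 populations sorted from the differentiating culture: APLNR+ mesoderm cells of day 2, CD31+CD34+ hemogenic endothelial progenitors (HEPs) of day 5 and CD43+ hematopoietic progenitor cells (HPCs) of day 8. Cells received activin A and BMP4 for 2 days and then VEGF and bFGF for 6 days, so the APLNR+ cells were collected at the end of the first step and the other 2 sorted populations during or at the end of the second, and all 4 libraries come from 1 line with no genetic change. Each population had 1 library and none a replicate, so every difference below is between libraries, and the intervals given for single genes cover counting error only. Of the genes of the 4 sorting markers, APLNR, CD34 and SPN were highest in the libraries named for them, and PECAM1, which encodes CD31, was not. APLNR reached 1073 FPKM in APLNR+ cells against 0.782 FPKM in BC1, CD34 reached 102 FPKM in HEPs, and SPN, which encodes CD43, reached 92.4 FPKM in HPCs. PECAM1 had 93.1 FPKM in HEPs and 126 FPKM in HPCs, against at most 0.460 FPKM in the other libraries. PTPRC, which encodes the leukocyte antigen CD45, stayed at or under 0.0349 FPKM in all 4 libraries. The depth recovered from the values was between 19660000 and 23580000 fragments a library. In RNA from a mixed sample, fewer cells that express a gene and less RNA of it per cell cannot be told apart.

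C2H2 zinc finger proteins bind DNA through rows of short zinc-holding loops, each of which reads a few bases. Most on chromosome 19 also carry a KRAB domain, which recruits the corepressor TRIM28 and through it the histone methyltransferase SETDB1, and many are known for silencing transposable elements in pluripotent cells and early development. The genes arose by repeated duplication in primates and other mammals and therefore stand in clusters of related copies. Neighbouring numbered ZNF genes less than 1 Mb apart formed 16 clusters here, of which 8 had 5 or more members and held 194 of the 205. Each of these is called by a member.

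Of the members, 177 encoded a KRAB domain by a score over 22 conserved positions, 27 did not and 1, ZNF788, had no annotated coding sequence. KRAB members had a median of 13 zinc fingers and the others a median of 9. ZNF91, with 32 fingers, had the most. A residue pattern for the SCAN domain, a protein interaction domain of some zinc finger proteins, matched ZNF274 and ZNF446. Such a pattern can miss a domain, so the other members are not shown to lack it.

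The promoters of some members are shown because they differed between clusters, as did the median changes described below. RefSeq promoters (GRCh38.p14, from 250 bases before to 50 after the start of the gene) were matched for 182 of the 205 members. The 200 bases before the start are printed here in lower case, 5′ to 3′ on the gene's strand, with TCCAATCA, TGTCACTC and CCGGAAG on either strand in capitals. The first 4 genes belong to the ZNF91 cluster, ZNF433 to the ZNF44 cluster, ZNF226 to the cluster of its name and ZNF83 to the ZNF160 cluster.
ZNF91 (chr19:23395472-23395671, minus strand): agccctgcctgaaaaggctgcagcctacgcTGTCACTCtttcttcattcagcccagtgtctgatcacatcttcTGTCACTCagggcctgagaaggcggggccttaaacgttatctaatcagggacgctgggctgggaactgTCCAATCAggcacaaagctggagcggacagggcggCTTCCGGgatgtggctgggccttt
ZNF93 (chr19:19900746-19900945, plus strand): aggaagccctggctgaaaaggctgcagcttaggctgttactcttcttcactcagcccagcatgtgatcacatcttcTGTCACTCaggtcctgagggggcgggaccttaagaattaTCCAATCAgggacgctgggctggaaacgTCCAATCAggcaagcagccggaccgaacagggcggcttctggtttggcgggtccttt
ZNF90 (chr19:20077800-20077999, plus strand): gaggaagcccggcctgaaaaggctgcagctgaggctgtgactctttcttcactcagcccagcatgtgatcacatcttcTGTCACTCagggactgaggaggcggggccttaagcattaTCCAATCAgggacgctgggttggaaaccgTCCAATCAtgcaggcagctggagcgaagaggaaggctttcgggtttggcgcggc
ZNF724 (chr19:23250395-23250594, minus strand): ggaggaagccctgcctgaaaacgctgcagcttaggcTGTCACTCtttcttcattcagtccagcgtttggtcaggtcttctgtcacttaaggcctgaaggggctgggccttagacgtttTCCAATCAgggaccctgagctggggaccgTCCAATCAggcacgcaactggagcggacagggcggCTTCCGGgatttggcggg
ZNF433 (chr19:12035680-12035879, minus strand): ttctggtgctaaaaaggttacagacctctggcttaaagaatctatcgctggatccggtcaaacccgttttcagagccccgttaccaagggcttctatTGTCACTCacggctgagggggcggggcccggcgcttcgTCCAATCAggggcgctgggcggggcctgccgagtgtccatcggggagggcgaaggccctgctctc
ZNF226 (chr19:44164900-44165099, plus strand): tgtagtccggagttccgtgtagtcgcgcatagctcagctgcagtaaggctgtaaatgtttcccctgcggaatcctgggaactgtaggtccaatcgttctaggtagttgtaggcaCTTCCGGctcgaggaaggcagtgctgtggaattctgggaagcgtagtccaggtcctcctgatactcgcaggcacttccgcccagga
ZNF83 (chr19:52690497-52690696, minus strand): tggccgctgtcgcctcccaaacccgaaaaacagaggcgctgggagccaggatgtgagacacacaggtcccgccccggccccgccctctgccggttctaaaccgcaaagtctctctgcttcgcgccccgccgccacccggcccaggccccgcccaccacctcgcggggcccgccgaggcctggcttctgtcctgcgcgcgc

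TCCAATCA was in all 24 matched promoters of the ZNF91 cluster, in 2 or more copies in 13 of them, and in 1.54% of all 35116 promoters of the table. It was also in 15 of 19 promoters of the ZNF44 cluster and in 3 of 4 of the small cluster around ZNF554, and in none of the matched members of other clusters. TGTCACTC was in 21 of 24 promoters of the ZNF91 cluster and 10 of 19 of the ZNF44 cluster, against 1.30% of all promoters. In the ZNF91 cluster the first base of TCCAATCA lay 24 to 88 bases before the start, with a median of 58. These 8-letter words were picked after the promoters had been read, and TCCAATCA contains CCAAT, the letters bound by the factor NF-Y, which were searched separately. CCAAT was in 52.2% of the matched members and 34.6% of all promoters.

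CCGGAAG, the core of sites bound by ETS family factors, was in 44.5% of the matched members against 10.3% of all promoters. It was in 17 of 28 promoters of the ZNF160 cluster, 29 of 49 of the ZNF274 cluster and 16 of 24 of the ZNF91 cluster, but in 2 of 19 of the ZNF44 cluster. GGGCGG, the core of the GC box, was in 69.8% of members and 45.0% of all promoters. GATGGCG, found in YY1 sites, was in 7.692% and 4.203%, TGACGTCA, the cyclic AMP response element, in 3.30% and 1.85%, and GCGCATGC, found in NRF1 sites, in 2.75% and 3.05%. All were searched on both strands, and a match describes letters only. The words of this paragraph contain CG, and the members' promoters held more of it, with a median of 21 CG pairs against 14 over all promoters. Their median share of G and C was 61% against 58.7%. No set of promoters with a like content of CG was compared.

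The members were expressed at low levels, with similar medians in the 4 libraries. Their median was 3.45 FPKM in BC1, 3.36 FPKM in APLNR+ cells, 3.899 FPKM in HEPs and 3.48 FPKM in HPCs, while the median of all genes was between 6.32 and 7.31 FPKM. In all 4 libraries 171 of the 205 had at least 1 FPKM, and none was listed at 0 anywhere. In a single library 185 to 195 members had at least 1 FPKM, beside 13554 to 14335 of all 17137 genes, of which 541 to 854 were at 0. Members and all genes were selected by the same limit, so such counts describe the set and are not a result. Only 18 reached 20 FPKM in some library, and 59 stayed under 3 FPKM in every library. The 208 numbered ZNF genes of other chromosomes were higher, with medians from 5.01 to 6.03 FPKM.

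**Figure D1:**
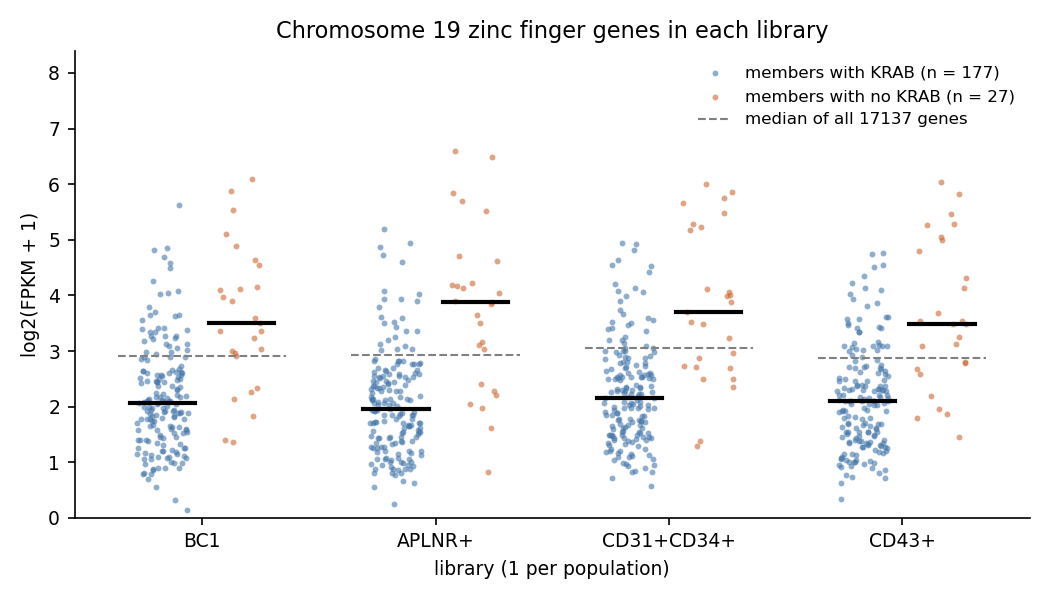
Level of each chromosome 19 zinc finger gene, as log2(FPKM + 1), in the 4 libraries, 1 point per gene. Black bars are medians of the 177 members with and the 27 with no KRAB domain, and dashed lines the median of all genes. The KRAB members' median lies below that of all genes in every library and the median of the others above it.

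Members with no KRAB domain stood above the KRAB members. Their median was 10.3, 13.8, 12.1 and 10.2 FPKM in BC1, APLNR+ cells, HEPs and HPCs, and that of the KRAB members was 3.19, 2.87, 3.48 and 3.30 FPKM. On other chromosomes the same order was seen with a smaller gap, with medians of 7.53 to 9.31 FPKM for 106 genes with no KRAB domain and of 4.23 to 4.37 FPKM for 101 KRAB genes. The gene with the highest value was ZNF358, a finger protein with no KRAB domain, which had 45.4 FPKM in BC1, 95.9 in APLNR+ cells, 62.9 in HEPs and 37.6 in HPCs. ZNF787 had 67.1, 88.8, 57.1 and 55.9 FPKM in the same order. Both were highest in the mesoderm library. ZNF358 shares 30.3% of the short windows of its longest transcript with other annotated genes, so its fragments are uncertain. Of its exon bases, 20.2% overlap another gene on the same strand and 14.2% lie opposite another gene. Among members with under 25% of their windows shared, the highest value was the 88.8 FPKM of ZNF787.

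ZNF146, which consists of little more than its fingers, had 57.6 FPKM in BC1, 56.6 in APLNR+ cells, 35.3 in HEPs and 43.3 in HPCs. ZNF444 was at 33.5, 50.9, 52.9 and 38.1 FPKM, and ZNF579 at 28.6, 44.8, 43.5 and 31.1 FPKM. The last pair had their higher values in the 2 middle libraries. Among KRAB members the highest values were those of ZNF738, with 48.3 FPKM in BC1, 35.4 in APLNR+ cells, 23.8 in HEPs and 16.5 in HPCs. Its annotated coding sequence holds a KRAB domain and no complete finger.

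The members changed less than genes in general over the 4 libraries. The difference between the highest and the lowest library, in log2(FPKM + 1), had a median of 0.73 over the members and 1.12 over all genes. It was 0.81 for ZNF genes of other chromosomes and 1.08 for the 869 other protein-coding genes of chromosome 19. Because low values are pressed together on this scale, the 187 members that stayed under 20 FPKM were set beside 7453 other protein-coding genes of that range, and the medians were 0.72 and 1.13. A range of 2 or more was found in 2 members, ZNF792 and ZNF649, or 0.976%, against 21.3% of all genes. The small range was not particular to chromosome 19. For the 101 KRAB ZNF genes of other chromosomes the median was 0.75, beside 0.74 for the KRAB members, and 2.97% of them had a range of 2 or more. The steadiest members with at least 5 FPKM throughout were ZNF574, with 15.7 to 18.9 FPKM, ZNF714, with 6.78 to 8.42 FPKM, and ZNF587, with 7.77 to 10.04 FPKM.

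From BC1 to APLNR+ cells, 6 of the 205 members were higher by at least 1 on the log2(FPKM + 1) scale, against 9.15% of all genes, and 6 were lower, against 9.32% of all genes. From APLNR+ cells to HEPs, 11 were higher, against 13.0% of all genes, and 5 lower, against 11.4%. From HEPs to HPCs, 1 was higher, against 7.63% of all genes, and 4 lower, against 13.5%. From BC1 to HPCs, the ends of the series, 12 were higher, against 15.2% of all genes, and 17 lower, against 18.9%. These make 2.93% and 2.93%, 5.37% and 2.44%, 0.488% and 1.95%, and 5.85% and 8.29% of the members. In every comparison and direction the share of the members was below that of all genes. This was not particular to chromosome 19, as the 208 ZNF genes of other chromosomes were also below all genes throughout. From APLNR+ cells to HEPs their shares were 3.37% and 2.40%, below those of the members, and in the other comparisons above them.

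**Figure D2:**
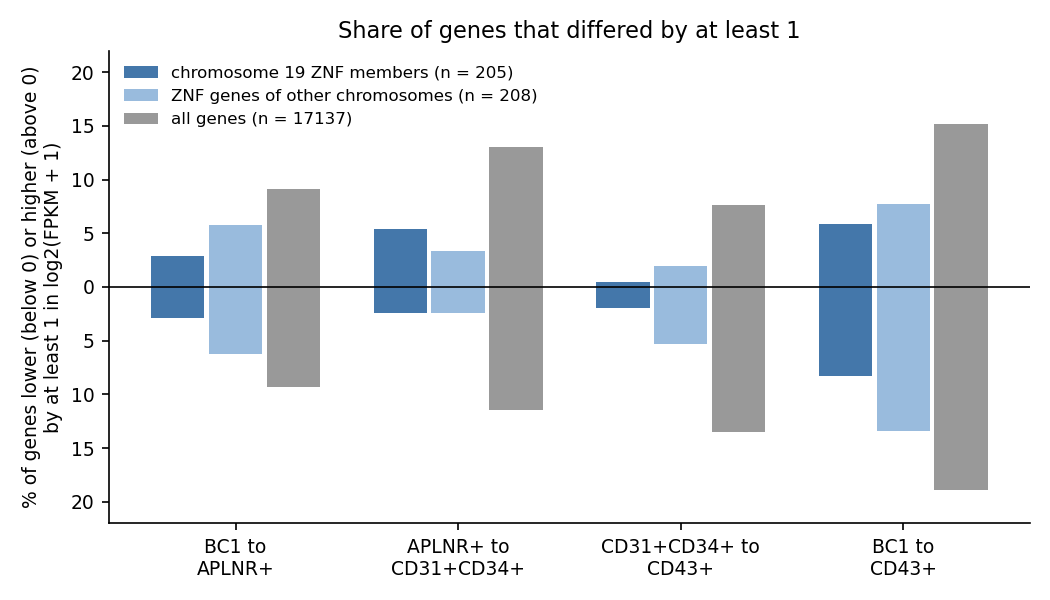
Share of genes, in percent, that were higher (above 0) or lower (below 0) by at least 1 in log2(FPKM + 1) in the 3 consecutive comparisons and between the ends of the series. Dark blue bars are the 205 members, light blue the 208 ZNF genes of other chromosomes and grey all 17137 genes. The grey bars are the longest in all 8 places.

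The medians over the members shifted by small amounts. The median change was -0.10 from BC1 to APLNR+ cells, 0.19 from APLNR+ cells to HEPs and -0.09 from HEPs to HPCs, beside 0.00, 0.01 and -0.08 over all genes. From APLNR+ cells to HEPs 128 members were higher and 77 lower, while 50.7% of all genes were higher. The commonest order of directions was down, up, down, which 57 members or 27.8% followed, against 16.0% of all genes. Sets more like the members lay between, with 21.8% of the KRAB ZNF genes of other chromosomes and 19.5% of other protein-coding genes under 20 FPKM. Of the members 65 were highest in HEPs, 62 in BC1, 44 in HPCs and 34 in APLNR+ cells, which make 31.7%, 30.2%, 21.5% and 16.6%, against 25.5%, 27.7%, 24.04% and 22.7% of all genes. With scaling by the median ratio of genes BC1 came before HEPs, with 64 and 60 members. The lowest value of 65 members, or 31.7%, was in APLNR+ cells, against 21.6% of all genes. For the KRAB ZNF genes of other chromosomes this share was 28.7%, close to that of the members. The comparisons that follow each other share a library, so a low value in APLNR+ cells adds to the fall before it and the rise after it. The median of ZNF genes of other chromosomes from APLNR+ cells to HEPs was 0.04, and 0.00 for other protein-coding genes of chromosome 19.

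The step into HEPs was larger in KRAB members, and among these in those with 15 or more fingers. KRAB members had a median change of 0.22 from APLNR+ cells to HEPs, with 117 of 177 higher, and the 27 members with no KRAB domain one of -0.12, with 11 higher. By the mean these were 0.18 and 0.03, so the negative sign of the second group held for the median only. Within the KRAB members the median was 0.10 for 38 with under 10 fingers, 0.21 for 77 with 10 to 14 and 0.32 for 62 with 15 or more. The means were 0.15, 0.13 and 0.27, so the groups with under 15 fingers were not in that order by the mean. The ranges between the quartiles of these groups overlapped. From BC1 to APLNR+ cells the KRAB members had a median of -0.13 and the others one of 0.26. The 101 KRAB genes of other chromosomes had medians of -0.07, 0.09 and -0.07 over the 3 steps, in the same directions and smaller in size.

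Position in the chromosome divided the KRAB members further. The ZNF91 cluster, from 19.7 to 24.1 Mb, holds 37 numbered ZNF genes and 27 members, and is named for the protein that silences SVA retrotransposons. Of its other 10 genes, 8 were listed at 0 in all 4 libraries and the other 2, ZNF208 and ZNF729, at no more than 0.0129 FPKM. These 8 were the only numbered ZNF genes of the chromosome listed at 0 throughout. The 27 members had a median change of -0.16 from APLNR+ cells to HEPs, with 10 higher and 17 lower, and of 0.13 from HEPs to HPCs, with 17 higher and 10 lower. Without ZNF714, which has no KRAB domain, the 26 KRAB members of the cluster had medians of -0.12, with 16 lower, and 0.12, with 16 higher. The 151 KRAB members outside this cluster had medians of 0.27, with 107 higher, and -0.13, with 58 higher. Both medians had the opposite sign to those of the ZNF91 cluster, but the ranges between the quartiles overlapped. From APLNR+ cells to HEPs these ran from -0.42 to 0.14 in the cluster and from -0.05 to 0.60 in the KRAB members outside it.

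**Figure D3:**
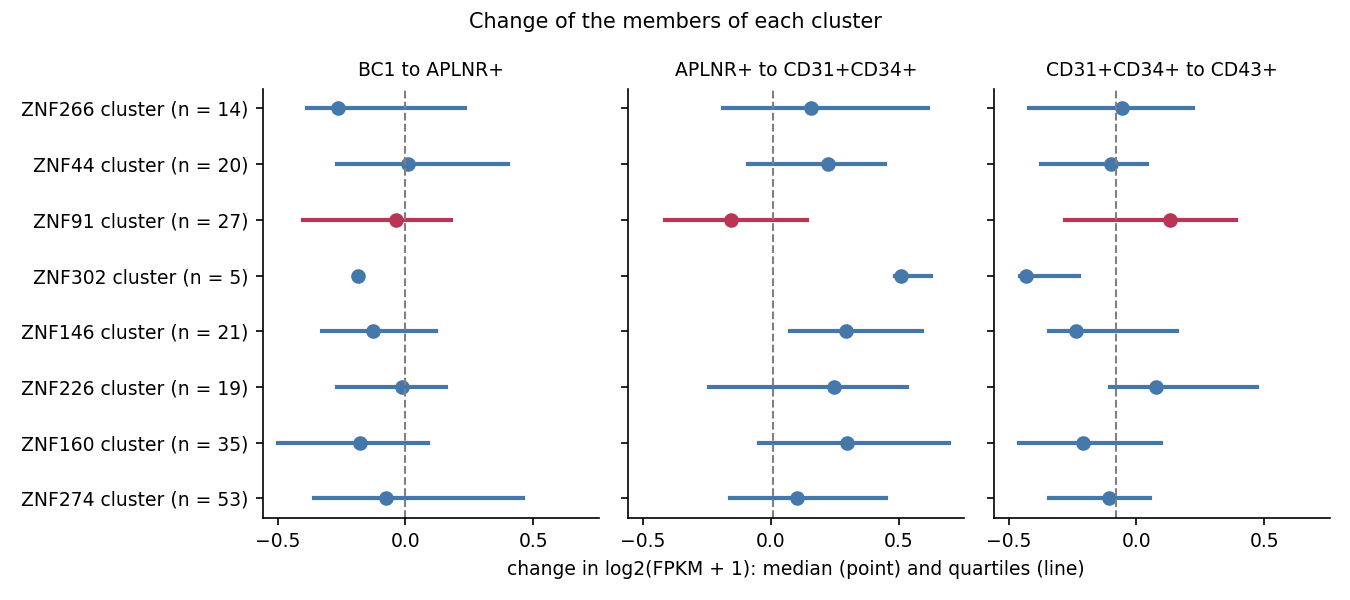
Change in log2(FPKM + 1) over the 3 steps for the 8 clusters with 5 or more members, in order along the chromosome. Points are medians over the members, lines run between the quartiles, dashed lines mark the median of all genes, and the ZNF91 cluster is in red. It is the only one of the 8 below 0 from APLNR+ cells to HEPs, at -0.16.

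The other 7 of the larger clusters all had a positive median from APLNR+ cells to HEPs. It was 0.30 for 35 members of the ZNF160 cluster, from 51.6 to 53.6 Mb, where 24 were higher. It was 0.30 for 21 members of the ZNF146 cluster, where 17 were higher, 0.25 for 19 of the ZNF226 cluster, 0.22 for 20 of the ZNF44 cluster, 0.16 for 14 of the ZNF266 cluster and 0.10 for 53 of the ZNF274 cluster. All 5 members of the ZNF302 cluster were higher, with a median of 0.51. From HEPs to HPCs the ZNF226 cluster, at 0.08, was the other cluster with a median above 0. The ranges between the quartiles of the clusters overlapped in each step, except that those of the 5 members of the ZNF302 cluster lay apart from some of the others in the last 2. The ZNF44 cluster shared the promoter words of the ZNF91 cluster but not its direction. Over all 42 members with TCCAATCA the median from APLNR+ cells to HEPs was 0.00, and 0.21 over the 140 without it.

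**Figure D4:**
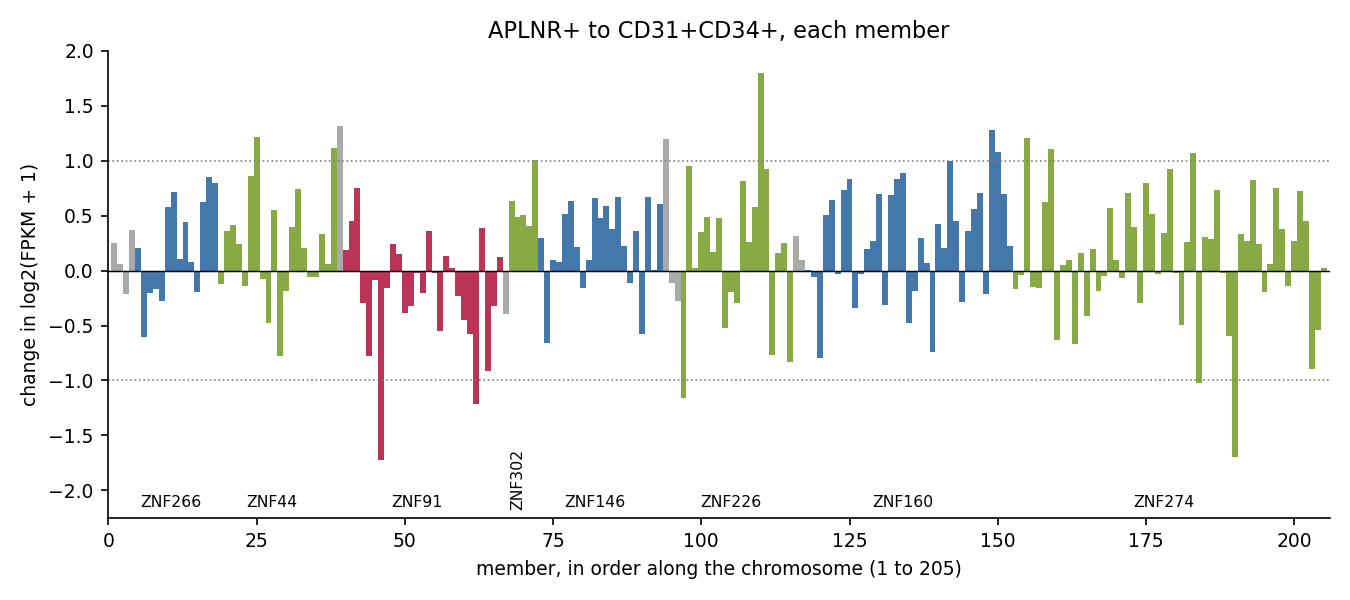
Change in log2(FPKM + 1) from APLNR+ cells to HEPs of each of the 205 members, in their order along chromosome 19. Bars alternate between blue and green by cluster, the ZNF91 cluster is red, smaller clusters are grey and dotted lines mark a difference of 1. Red bars below 0 outnumber those above it, 17 to 10.

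The profiles of adjacent members differed by about as much as those of other pairs. The 141 pairs of adjacent members less than 50 kb apart had a median difference of 0.57 between their profiles, taken as the root mean square over the 3 steps, and all 20910 pairs of members one of 0.59. The 3003 pairs within a cluster had 0.59. Taken step by step, the changes of the 141 adjacent pairs had a Pearson correlation across pairs of 0.26 from BC1 to APLNR+ cells, 0.08 from APLNR+ cells to HEPs and 0.09 from HEPs to HPCs. These pairs come from the same libraries and share members, so they are not independent.

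In the ZNF91 cluster 2 members were lower by at least 1 from APLNR+ cells to HEPs. ZNF90 had 23.0 FPKM in BC1, 28.3 in APLNR+ cells, 7.89 in HEPs and 7.55 in HPCs. It was high in the first pair of libraries and low in the last, and the level in APLNR+ cells was 3.59 times that in HEPs (95% counting interval 3.20 to 4.04). ZNF724 had 4.36, 5.51, 1.80 and 1.32 FPKM, a ratio of 3.06 (1.86 to 5.35) at the same step. It shares 56.1% of the 50-base windows of its longest transcript with other annotated genes, so its fragments are uncertain.

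ZNF93, which silences L1 elements of the primate lineage, had 15.3 FPKM in BC1, 11.1 in APLNR+ cells, 6.02 in HEPs and 10.4 in HPCs, with its lowest value in HEPs. ZNF91 itself had 4.96, 5.01, 6.87 and 5.43 FPKM and was highest there. The proteins known for silencing retrotransposons therefore did not share a direction at this step. ZNF738, described above, was lower at each step, and its level in BC1 was 2.93 times (2.56 to 3.36) that in HPCs. ZNF101, at the edge of the cluster, was at 15.4 FPKM in BC1 and between 5.92 and 7.49 FPKM in the others, while ZNF493 had its highest value in HPCs, at 7.19 FPKM, and its lowest in APLNR+ cells, at 2.85 FPKM.

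Several KRAB members were highest in undifferentiated cells. ZNF649, known to bind L1 sequence, had 15.9 FPKM in BC1, 6.23 in APLNR+ cells, 3.17 in HEPs and 3.97 in HPCs. BC1 stood apart, at 4.01 times (2.82 to 5.95) the level in HPCs. ZNF114 had 6.41, 1.58, 2.22 and 1.47 FPKM, a ratio of 4.36 (2.85 to 6.72) between the same libraries. ZNF551 had 12.8, 7.17, 3.03 and 3.99 FPKM, a ratio of 3.22 (2.64 to 3.94). ZNF57 had 3.25 FPKM in BC1 and between 0.983 and 1.30 FPKM afterwards. All 4 are listed because BC1 held their highest value, so their lower values in the sorted populations are not a separate result.

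ZNF836, with 24 fingers, had 6.29 FPKM in BC1, 4.23 in APLNR+ cells, 4.13 in HEPs and 1.61 in HPCs. ZNF845, with 26, had 7.72, 2.62, 4.91 and 4.18 FPKM, so that only the mesoderm library was far below BC1, by a factor of 2.95 (2.57 to 3.39). ZNF814 had 24.8, 23.2, 6.45 and 9.68 FPKM and was 3.60 times (2.77 to 4.71) higher in APLNR+ cells than in HEPs. It lies within the same stretch as ZNF587 on the opposite strand, which overlaps 20.4% of its exon bases together with 2 genes known only by clone names, and ZNF587 was steady, as given above. ZNF20 had 3.34, 0.921, 1.82 and 0.755 FPKM and shares 71.9% of its windows with other genes.

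**Figure D5:**
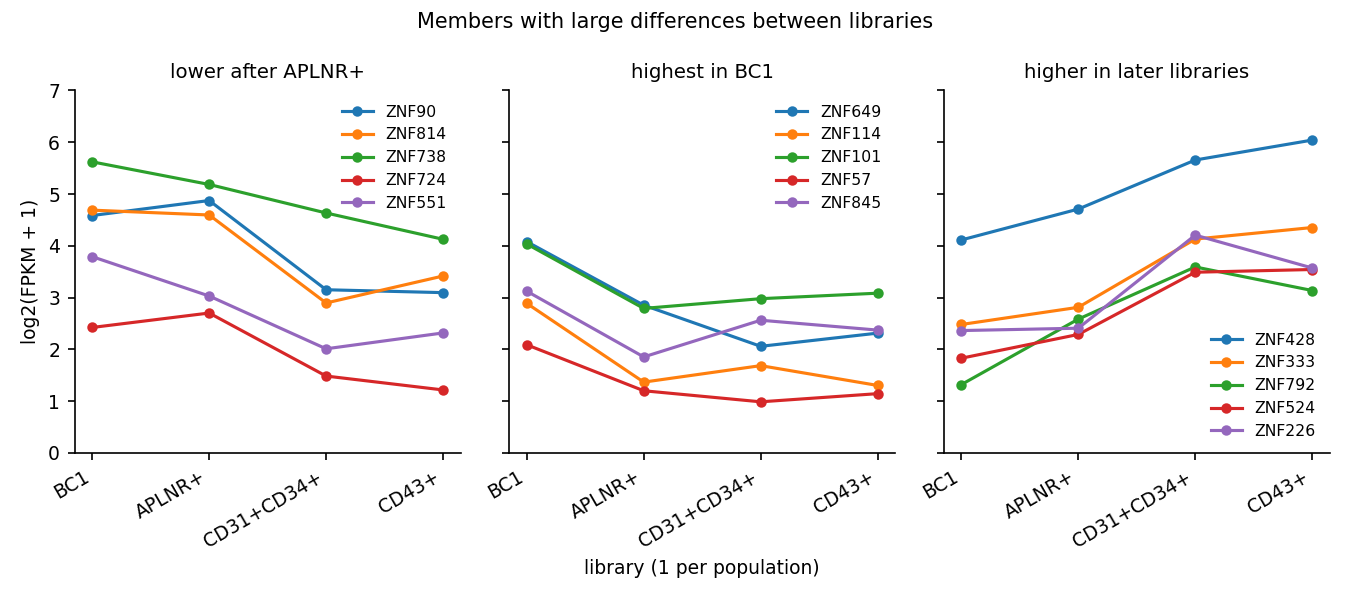
Level, as log2(FPKM + 1), of 15 members in the 4 libraries, 1 line per gene. The left panel holds members lower in HEPs and HPCs than in APLNR+ cells, the middle panel members highest in BC1 and the right panel members higher in later libraries. ZNF90 lies between 23.0 and 28.3 FPKM in the first pair of libraries and below 8 FPKM in the last pair.

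Other members rose. ZNF428, which has a single finger, had 16.3 FPKM in BC1, 25.2 in APLNR+ cells, 49.5 in HEPs and 64.9 in HPCs. It was higher at each step and 3.98 times (3.49 to 4.56) higher in HPCs than in BC1. Of its exon bases, 27.6% lie opposite SRRM5, and whether counting used the strand is not stated. ZNF333 had 4.58, 6.03, 16.5 and 19.4 FPKM, 4.24 times (3.74 to 4.82) higher in HPCs than in BC1. ZNF524 followed a like course with 2.55, 3.89, 10.2 and 10.7 FPKM.

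ZNF792, of the ZNF302 cluster, had the widest range of the members, with 1.498 FPKM in BC1, 5.00 in APLNR+ cells, 11.1 in HEPs and 7.80 in HPCs. It was 5.21 times (4.16 to 6.65) higher in HPCs than in BC1. ZNF83 had 6.93, 15.3, 29.2 and 22.5 FPKM, with HEPs highest. ZNF226 was even in the first pair of libraries, at 4.15 and 4.31 FPKM, and rose to 17.5 FPKM in HEPs, 4.05 times (2.73 to 6.22) its level in APLNR+ cells, with 10.9 FPKM in HPCs.

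The 34 members highest in the mesoderm library included ZNF611, ZNF584, ZNF583 and ZNF730. ZNF611 had 1.82 FPKM in BC1, 8.20 in APLNR+ cells, 5.62 in HEPs and 3.62 in HPCs, a rise of 4.52 times (3.59 to 5.72) at the first step. ZNF584 had 4.52, 13.9, 6.99 and 4.73 FPKM, a rise of 3.06 times (2.49 to 3.78). It returned to its BC1 level, as did ZNF583, with 1.33, 2.28, 1.06 and 1.19 FPKM. ZNF730 peaked there too, at 6.06 FPKM, against 1.40 to 3.73 FPKM elsewhere.

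HEPs were the peak of ZNF791, with 3.29 FPKM in BC1, 4.88 in APLNR+ cells, 11.7 in HEPs and 4.18 in HPCs, a rise of 2.41 times (2.16 to 2.69) and a fall by a factor of 2.81 (2.50 to 3.16). ZNF761 and ZNF699 had the same form, with 13.9 FPKM in HEPs against 6.05 to 7.26 FPKM elsewhere, and 2.62 FPKM against 0.870 to 1.42 FPKM. ZNF765 rose from 3.40 to 9.64 FPKM and kept 7.59 FPKM in HPCs. ZNF433 went from 0.246 FPKM in BC1 and 0.699 in APLNR+ cells to 2.95 in HEPs and 2.06 in HPCs, on 2.10 to 28.8 fragments a library. Its ratio of 4.22 into HEPs therefore has an interval from 1.86 to 13.4.

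From HEPs to HPCs the 1 member higher by at least 1 was ZNF28, with 4.12 FPKM in BC1, 5.16 in APLNR+ cells, 6.56 in HEPs and 15.4 in HPCs, a ratio of 2.34 (1.93 to 2.87). ZNF221 and ZNF223, both of the ZNF226 cluster, were also highest in HPCs, at 2.12 and 3.86 FPKM, and ZNF223 shares 61.9% of its windows. The 4 that fell were ZNF791, ZNF615 from 4.76 to 1.43 FPKM, ZNF550 from 8.23 to 3.13 FPKM and ZNF559 from 9.27 to 3.62 FPKM. Each was highest in HEPs.

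Members with other known roles included steady and changing ones. ZNF274, which binds the ends of zinc finger genes and recruits SETDB1 there, had 12.1 FPKM in BC1, 11.3 in APLNR+ cells, 14.96 in HEPs and 14.2 in HPCs. ZNF417, which with ZNF587 silences HERV-K elements, had between 3.31 and 5.12 FPKM. ZNF331, an imprinted gene, had 27.9, 25.3, 29.7 and 17.7 FPKM, with HPCs lowest. ZNF473, needed for processing of histone messenger RNA, had between 3.41 and 4.81 FPKM. ZNF534, which acts on HERV-H elements, missed the rule with at most 0.0672 FPKM.

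Of members studied in other settings, ZNF160 was higher in HEPs and HPCs, at 20.4 and 16.0 FPKM, than in BC1 and APLNR+ cells, at 10.8 and 9.74 FPKM. ZNF671 had 1.97 FPKM in BC1 and 6.11 in HPCs, and ZNF154, like it known for promoter methylation in cancer, stayed between 4.57 and 5.87 FPKM. ZNF296, whose mouse counterpart is a gene of pluripotent cells, had 3.82 FPKM in BC1, 3.65 in APLNR+ cells, 1.62 in HEPs and 2.66 in HPCs. ZNF568, ZNF382 and ZNF558 had their extremes in HEPs, the first pair highest at 2.94 and 5.44 FPKM and the last lowest at 6.23 FPKM. ZNF175 was highest in HPCs at 3.49 FPKM.

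The genes through which KRAB proteins act were mostly expressed above the members. All 24 cofactors of a list written from general knowledge had at least 1 FPKM. TRIM28, the corepressor that binds KRAB domains, had 508 FPKM in BC1, 570 in APLNR+ cells, 438 in HEPs and 404 in HPCs. SETDB1 had 16.5, 15.3, 19.8 and 20.3 FPKM, and its partner ATF7IP 46.2, 45.5, 69.8 and 55.5 FPKM. None of these 3 differed by 1 between any of the libraries compared.

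From BC1 to APLNR+ cells 1 cofactor, CHD3, a chromatin remodelling enzyme, was higher by at least 1, with 15.2 and 50.0 FPKM, and none was lower. Of all genes 9.15% and 9.32% passed. From APLNR+ cells to HEPs none passed in either direction, against 13.0% and 11.4% of all genes. At this step 16 of the 24 were lower to any degree, as were 8217 of all 17137 genes. The median was -0.23, beside 0.01 over all genes and 0.19 over the members. No set of genes at the level of the cofactors was compared. From HEPs to HPCs PPHLN1, a subunit of the HUSH silencing complex, was higher, at 63.6 and 135 FPKM. None was lower, and of all genes 7.63% and 13.5% passed. Between the ends of the series CHD3 and PPHLN1 were higher, and CBX1, a heterochromatin protein with 119 FPKM in BC1 and 48.7 in HPCs, and HDAC2, a histone deacetylase with 236 and 115 FPKM, were lower. These 2 of 24 in each direction stand beside 15.2% and 18.9% of all genes.

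Related sequence limits what can be said of single members. A median of 3.63% of the windows of a member occurs in another gene, but 21 members share 25% or more, and 22 have 10% or more of their exon bases opposite another gene. The median over members and libraries was 95.4 approximate fragments.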

How the data were processed

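RNA sequencing libraries (Illumina TruSeq RNA kit, total RNA) came from BC1 cells and 3 sorted populations, 1 library each. FPKM values per gene were deposited by the authors in 1 table, and the unit was taken from the study's plots and the values. The submitters' processing notes name BWA, Bowtie, RSEM and hg19, without versions or roles. The loci of 195 of the 205 members, found with the same identifier version in GENCODE 29, had the positions of that GRCh38 release, so GRCh38 is the build of all positions, which count from 1. Whether strand was used is not given in the sources used here. Rows of 1 gene identifier were summed. No column of values was left out.

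The members and lists were chosen with earlier results of these data known. Members were selected on FPKM, so no test was run on them, and without replicates no p-value is given. Values were analysed as log2(FPKM + 1), and a difference of at least 1 was counted. A change on this scale understates that of low genes. Depth was fitted from the steps of low values of genes with a single transcript. From 92.7% to 94.7% of them fell within 0.1 of a whole fragment. Approximate fragments gave each fold an exact Clopper-Pearson 95% interval, which covers counting error only, with a floor of 3 fragments. Scripts were tested on simulated data. Python 3.11.15, pandas 2.3.3, scipy 1.17.1 and Biopython 1.88 were used.

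No protein table was used. Fingers (C2H2 pattern), the KRAB score (at least 10 of 22 positions) and SCAN were read from translated GENCODE 29 coding sequences, in place of the RefSeq proteins first planned. Members named in the text were those with the highest values, the largest changes per comparison with an interval that leaves out 1, the highest ratios per library, the smallest ranges, the values next to the rule, the highest mean per cluster, and those with a known role. ZNF208, ZNF729, ZNF446, ZNF788, ZNF534, ZNF829, ZNF560, the genes with other symbols, and the choice among these members, fall outside that rule and were made after the values were seen. The alternatives were a pseudocount of 0.1, no filter and a filter of 5 FPKM, scaling by the median ratio of genes, calls only where the counting interval leaves out 1, the mean in place of the median, and, added after seeing the data, only members with under 25% of their windows shared.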

Additional observations from a re-analysis of the deposited data

How the results depend on the processing

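Each population had 1 library, so no result has a replicate check. No paired analysis was possible because the libraries carry no shared replicate numbers. Of 116 values recomputed under the alternatives, 102 stayed within 1.5 times a reported count or 0.1 of a reported median, no median of at least 0.1 changed sign, and 14 moved. This tally holds outcomes fixed in advance. A gene under 1 FPKM cannot differ by 1 on the log2(FPKM + 1) scale, so without the filter those counts had to stay. The counts of members highest in each library moved under the filter of 5 FPKM, where fewer members were left. A pseudocount of 0.1 gave 11 members higher and 17 lower from BC1 to APLNR+ cells, 26 and 10 from APLNR+ cells to HEPs, 6 and 16 from HEPs to HPCs, and 23 higher from BC1 to HPCs, because it widens the differences of low genes. The shares of all genes rose with it, to 13.6% and 15.03%, 19.2% and 16.7%, 11.1% and 20.4%, and 20.1% higher, and remained above those of the members. With it the median of KRAB members outside the ZNF91 cluster was 0.37 from APLNR+ cells to HEPs. Scaling by the median ratio gave 3 members higher from HEPs to HPCs. Without members that share many windows, 3 were lower from APLNR+ cells to HEPs. With a filter of 5 FPKM, which left 105 members, 33 were highest in BC1, 21 in APLNR+ cells, 29 in HEPs and 22 in HPCs, so that BC1 and not HEPs held the most. Scaling by the median ratio turned that order too, with 64 members highest in BC1 and 60 in HEPs. The median of the ZNF91 cluster stayed between -0.20 and -0.12 from APLNR+ cells to HEPs and between 0.08 and 0.19 from HEPs to HPCs. At 1 FPKM a transcript of 2000 bases stood for 34.2 to 40.6 fragments, a counting error of 15.7% to 17.1%, so small differences of members near that level were not detectable at this depth. Of the members that differed by at least 1, the counting interval left out 1 in all but 2, ZNF433 from BC1 to HPCs and ZNF546 from APLNR+ cells to HEPs, which had 3 fragments or fewer in 1 library.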

Other observations

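The zinc finger genes of chromosome 19 with other kinds of symbol were left out by the rule. A fixed list of symbol forms was searched, such as ZNF with a number and letters, or ZFP, ZSCAN and ZBTB with a number. It gave 17 protein-coding genes with at least 1 FPKM, and zinc finger genes with symbols outside the list were not counted. ZIK1, a KRAB zinc finger gene of the ZNF274 cluster's stretch, had 18.7 FPKM in BC1, 10.6 in APLNR+ cells, 8.56 in HEPs and 5.88 in HPCs, lower at each step. ZNF587B, a close relative of ZNF587, had 14.8, 7.11, 4.78 and 5.83 FPKM, while ZNF587 itself was steady. ZFP30 went the other way, with 1.16, 2.46, 4.85 and 5.29 FPKM. ZNF780B and ZNF780A, which lie next to each other, differed in form: ZNF780B was highest in BC1, at 11.6 FPKM, and ZNF780A in HEPs, at 13.4 FPKM. ZSCAN18 had the highest values of these 17 genes, with 31.8, 32.9, 53.6 and 25.9 FPKM. The median change of the 17 was -0.18 from BC1 to APLNR+ cells, 0.26 from APLNR+ cells to HEPs and 0.11 from HEPs to HPCs. The last had the opposite sign to that of the members, -0.09. From BC1 to HPCs it was -0.29, against -0.03 for the members.

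Of the 37 numbered ZNF genes of chromosome 19 under the rule's limit, 10 are in the ZNF91 cluster, all of them at or under 0.0129 FPKM. The highest values of the other 27 were spread from 0.0178 FPKM, for ZNF560, to 0.971 FPKM, for ZNF441. ZNF829 had 0.930 FPKM in BC1 and at most 0.312 FPKM later.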
